A study of Mus musculus with 57 samples.

Results

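The mouse genes named Tomm and Timm, which encode the channels, receptors and chaperones that bring proteins into mitochondria, were followed in the adipose tissue of mice carrying a mutant mitofusin 2. Members were the protein-coding genes whose symbol is Tomm or Timm followed by a number, plus Timmdc1, without pseudogenes. The rule found 26 genes among the 52853 with counts, in each of 3 count tables. They comprise 10 genes listed with the outer membrane complex and its receptors, 6 of the TIM23 complex, 2 of the TIM22 complex, 7 small Tim chaperones and Timmdc1. The 10 include Tomm34, a cytosolic cochaperone outside that complex, and counts and medians for the 10 include it. A further entry with a matching name, the antisense RNA Tomm6os, was left out by its class.

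RNA sequencing covered 41 columns, each of 1 male mouse and tissue, in 6 groups. Wild-type (WT) mice and homozygous Mfn2-R707W knock-in (KI) mice, made on the C57BL/6J background from 1 founder, were on their diet for 6 months. The study's methods give an age of 5 weeks when mice were allocated to a diet, while its figure legends give 7 weeks. Brown adipose tissue (BAT) was taken from 6 WT and 6 KI mice on a high-fat diet (HFD) with 45% of energy from fat. Inguinal white adipose tissue (WAT) was taken from 8 WT and 8 KI mice on HFD, and from 7 WT and 6 KI mice on chow. The KI allele was present in every cell of the body, so the tissues hold the mutant protein in adipocytes and in all other cell types.

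Nearly all mitochondrial proteins are made in the cytosol. They enter through the TOM complex of the outer membrane, whose channel is Tomm40 and whose receptors are Tomm20, Tomm22 and Tomm70a. Proteins with a cleavable presequence go on through the TIM23 complex into the matrix or inner membrane, while carrier proteins, and the hydrophobic inner membrane proteins like them, are handed by small Tim chaperones such as the Timm9 and Timm10 complex to the TIM22 complex. Brown adipocytes are packed with mitochondria, and Mfn2, the mutated gene here, encodes a GTPase of the outer membrane that fuses mitochondria.

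Total counts ranged from 8042591 to 11720458 in BAT and in inguinal WAT on chow, and from 17572752 to 25680411 in inguinal WAT on HFD, where 2 libraries of each mouse were combined in 1 column. Mfn2 itself was read in every mouse, at 130 to 299.7 CPM (counts scaled to a common library total) in WT and 183 to 418 CPM in KI, and its mean log2 CPM was higher in KI by 0.34 in inguinal WAT on HFD, 0.37 in inguinal WAT on chow and 0.28 in BAT (2-sided exact permutation p = 0.00326, 0.0122 and 0.00649). Counts per gene cannot show whether a library carries the substitution. The defining brown adipocyte marker Ucp1 was at 3355 to 6410 CPM in BAT and at most 2.02 CPM in any inguinal library. Together, 6 skeletal muscle markers summed to 62310 CPM in 1 KI mouse on chow (replicate 4) and to at most 4019 CPM in every other mouse. Likewise, 6 lymphocyte markers, summed, reached 368 CPM in KI and 94.1 CPM in WT on chow, and 599.8 CPM in KI and 413 CPM in WT inguinal WAT on HFD, against group medians of 5.89 to 12.7 CPM. In a bulk tissue, fewer cells of a type and less RNA per cell cannot be told apart.

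The promoters of the members called in any comparison of KI with WT mice are shown first, as the stretch of 250 bases that ends at the base before the RefSeq gene start (GRCm38.p6, 5′ to 3′ along the gene). A window was given for 23 of the 26 members, all but Timm21, Tomm40l and Tomm7. The fifth sequence, that of Timmdc1, is shown as a member window with a pair of matches, and the capitals mark these matches to CCGGAAGT, the core that ETS factors such as GABPA bind.
Timm22, chr11:76406675-76406924, plus strand: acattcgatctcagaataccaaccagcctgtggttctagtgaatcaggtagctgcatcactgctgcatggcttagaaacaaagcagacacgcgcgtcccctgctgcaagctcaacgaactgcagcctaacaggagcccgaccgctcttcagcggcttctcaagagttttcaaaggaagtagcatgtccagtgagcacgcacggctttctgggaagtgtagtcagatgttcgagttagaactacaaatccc
Timm10, chr2:84826771-84827020, plus strand: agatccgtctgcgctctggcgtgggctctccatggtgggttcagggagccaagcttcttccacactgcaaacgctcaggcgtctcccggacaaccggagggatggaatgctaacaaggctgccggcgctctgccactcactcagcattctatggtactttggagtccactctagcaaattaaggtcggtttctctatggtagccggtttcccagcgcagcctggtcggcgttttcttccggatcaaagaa
Timm50, chr7:28312047-28312296, minus strand: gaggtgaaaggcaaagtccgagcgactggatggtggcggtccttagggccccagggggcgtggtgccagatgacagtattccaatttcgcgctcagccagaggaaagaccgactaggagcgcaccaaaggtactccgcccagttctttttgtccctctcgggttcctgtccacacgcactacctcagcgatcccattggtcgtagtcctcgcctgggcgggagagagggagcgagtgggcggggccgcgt
Tomm40, chr7:19715430-19715679, minus strand: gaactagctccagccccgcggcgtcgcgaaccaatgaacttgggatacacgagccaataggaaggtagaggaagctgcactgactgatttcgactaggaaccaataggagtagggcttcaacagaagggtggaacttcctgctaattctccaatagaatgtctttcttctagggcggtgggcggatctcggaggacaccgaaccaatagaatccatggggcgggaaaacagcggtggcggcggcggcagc
Timmdc1, chr16:38522664-38522913, minus strand: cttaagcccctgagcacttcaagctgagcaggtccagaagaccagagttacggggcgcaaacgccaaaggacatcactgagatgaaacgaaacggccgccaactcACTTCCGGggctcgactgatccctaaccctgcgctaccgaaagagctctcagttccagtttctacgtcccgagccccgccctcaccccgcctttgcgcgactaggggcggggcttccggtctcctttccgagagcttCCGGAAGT

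Both strands of each window were searched for 4 strings of letters. CCGGAAGT was found in 5 of the 23 member windows (Timm23, Timm29, Timm8a2, Timmdc1 and Tomm70a), or 21.7%, against 2.88% of all 32851 windows. In Timmdc1 it lay 145 and 8 bases before the start, and in Timm23, whose start is 51 bases from that of Parg on the other strand, it lay 48 bases before the start. The repeat that NRF1 binds, GCGC on both sides of 2 bases of any kind, was in the window of Tomm20, at 20 bases before the start, and in 4.98% of all windows. AAGATGGC, a core bound by YY1, was in no member window and in 1.56% of all windows. TGATGNAA, the composite element of ATF4, was in no member window and in 3.45% of all windows. At such low rates, finding neither string in 23 windows does not set the members apart from other genes. Bases after the start were not searched. The windows of Timm22, Timm10, Timm50 and Tomm40 held none of the 4 strings. Members were richer in G and C, with a median of 57.6% against 52.4% over all windows, so their rate of a string of G and C letters is read beside a base composition that differs.

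Levels between genes were compared as RPKM, CPM divided by the length of the gene model in kilobases, with a common scaling of all 41 columns. In WT BAT the highest members were the small Tim chaperone Timm13 at 223 ± 43.1 RPKM (SD, n = 6), the small Tim Timm8b at 190 ± 32.0, and Tomm5, a small subunit that sits beside the Tomm40 channel, at 171 ± 28.1. These neighbours in the order overlapped from mouse to mouse, with Timm13 at 185 to 296, Timm8b at 140 to 235 and Tomm5 at 141 to 219 RPKM. Tomm7, another small TOM subunit, and the channel Timm23 followed at 107 ± 15.3 and 99.5 ± 16.4 RPKM, and they too overlapped.

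Per length of gene model, the channels of the 3 complexes were not at one level. The deposited lengths are 1786 bases for Timm23, 4513 for Tomm40 and 3183 for Timm22. Before division by length, the CPM of Timm23 and Tomm40 in WT BAT, given below, overlapped each other, so the gap between them depends on the length used. In WT BAT, Timm23 was at 99.5 ± 16.4, Tomm40 at 34.6 ± 4.31 and Timm22 at 15.4 ± 2.69 RPKM, and no mouse value of one overlapped that of another, with Timm23 at 78.6 to 122, Tomm40 at 28.0 to 41.0 and Timm22 at 12.3 to 18.3 RPKM. The order of these 3 was the same in WT inguinal WAT, at 46.1, 15.0 and 8.69 RPKM on chow and at 36.0, 11.2 and 6.51 RPKM on HFD. The receptor Tomm20 was at 26.3 RPKM in BAT, 18.6 in inguinal WAT on chow and 14 on HFD, and Tomm70a, the receptor for carrier precursors, at 11.2, 6.79 and 6.63 RPKM.

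At the low end, Timm8a2 was at 0 in most mice and reached no more than 0.179 RPKM in WT. Tomm20l, a relative of Tomm20, was at 3.08 ± 0.740 RPKM in WT BAT and below 1.31 RPKM in every WT inguinal sample, and rests on 517 counts in all mice. Tomm20l shares 49 bases with Timm9 on the other strand, which had 16434 counts, and the effect of this on its values was not tested. Tomm6, a small subunit of the TOM complex, was at 0.719 ± 0.255 RPKM in WT BAT. Its gene shares 777 bases with the antisense Tomm6os, which had 65047 counts against 655 for Tomm6, and since the strand setting of the counting is not given in the sources used here, reads of Tomm6 and Tomm6os cannot be told apart. Tomm6 also shares 1648 bases with Gm21981, a protein-coding entry on the same strand with 45 counts, where reads are ambiguous whatever the strand setting. The low value of Tomm6 is therefore no measure of the subunit.

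**Figure D1:**
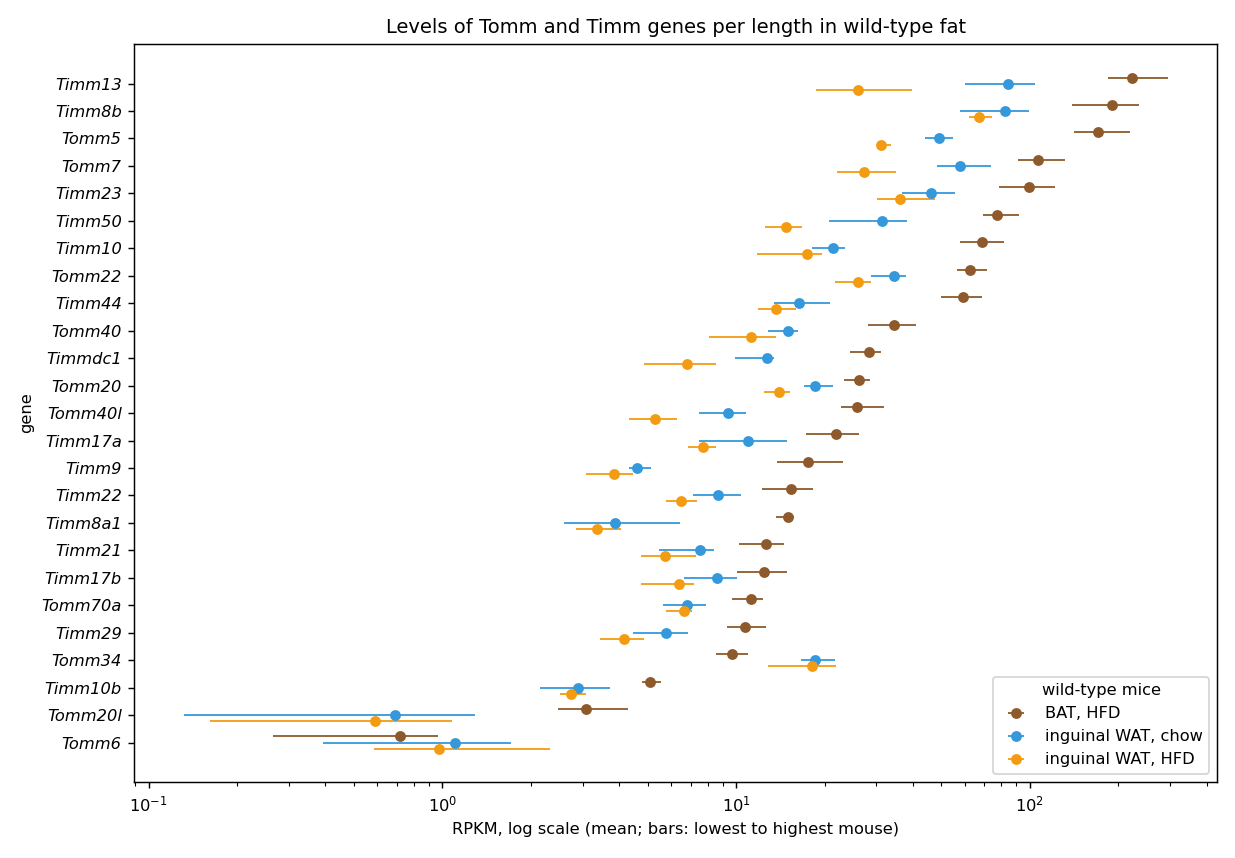
Levels of the members in WT mice, in RPKM on a log axis, for BAT on HFD, inguinal WAT on chow and inguinal WAT on HFD. Points are means and bars run from the lowest to the highest mouse. Timm8a2, at or near 0, is left out. Timm13 has the highest mean in BAT and inguinal WAT on chow, and Timm8b in inguinal WAT on HFD. Of the members plotted, Tomm34 and Tomm6 have a lower mean in BAT than in inguinal WAT.

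The first comparison asked how the KI allele moves the import genes in inguinal WAT on HFD. Of the 25 members tested, 1 rose (Timm50) and 1 fell (Timm22), by edgeR's quasi-likelihood test with Benjamini-Hochberg adjustment over all genes and a threshold of 0.01. Both belong to inner membrane translocases, Timm50 being the receptor of the TIM23 complex that takes presequences from the TOM complex, and Timm22 the channel of the carrier translocase. Over all 16471 genes tested, 11.5% were called, 6.21% as higher and 5.24% as lower, and the members' 2 of 25 (8%) lies near that background. Scaling by library size alone, without TMM factors, made 73.5% of the calls over all genes higher in place of 54.2%. Then 5 members were called, with Timm8b, Timm21, Timm44 and Timm50 higher and Timm22 lower. Of all genes, 15% were then called, 11% as higher and 3.98% as lower. Mitochondrially encoded genes held 5.40 to 14.8% of all counts in WT and 2.15 to 3.68% in KI mice here, which by itself moves shares of the rest.

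Timm22 (ENSMUSG00000020843, chromosome 11, 76406952 to 76416292, plus strand, GRCm38) was at 20.6, 23.0 and 26.3 CPM in WT mice (lowest, median and highest of 8) and at 13.7, 16.3 and 19.9 CPM in KI mice. Every KI mouse lay below every WT mouse. The log2 fold change was −0.49 (SE 0.0813, edgeR adjusted p = 0.000267), and the exact permutation test over mice gave p = 0.000155, the smallest that 8 against 8 mice allow. No other member had groups that did not overlap, where 2.37% of all genes were lower and 2.38% higher with no overlap.

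Timm50 (ENSMUSG00000003438, chromosome 7, 28305516 to 28312072, minus strand) was at 38.5, 44.8 and 50.4 CPM in WT mice and at 46.3, 58.6 and 66.2 CPM in KI mice. The groups overlapped by 1 KI mouse, and the other 7 of 8 lay above all WT mice. The log2 fold change was 0.39 (SE 0.0819, edgeR adjusted p = 0.00231, exact permutation p = 0.000777). Without the 3 WT and 3 KI mice whose skeletal muscle markers summed to more than 1000 CPM or whose lymphocyte markers summed to more than 50 CPM, a choice made after these levels were seen, the values of Timm22 and Timm50 were −0.44 and 0.40 and neither was called (edgeR adjusted p = 0.0159 and 0.0135).

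The other members in inguinal WAT on HFD stayed within a narrow band, from −0.27 for Timm8a1 to 0.28 for Timm21 on the log2 scale. The receptor Tomm20 (0.03, SE 0.0514), the channels Timm23 (0.06, SE 0.0840) and Timm17a (0.03, SE 0.0693), and Timm17b (0.15, SE 0.0872) were not called. For Tomm20, WT mice were at 68.9 to 84.0 and KI mice at 74.5 to 84.4 CPM, so that the KI range lay almost wholly within the WT range. Timm17a was at 61.1 to 75.8 CPM in WT and 62.7 to 83.8 CPM in KI mice on HFD, and at 67.9 to 126 and 85.3 to 108 CPM on chow, again with overlap. The median over the 25 members was 0.04, with 18 above 0, against a median of 0.0055 and 50.8% above 0 over all genes. The 10 members of the TOM complex and receptors had a median of 0.04 with none called, the 6 of TIM23 a median of 0.16, the 2 of TIM22 a median of −0.22, and the 6 small Tims tested a median of −0.02. Fibroblast and stroma markers, summed, were at 1948 to 3177 CPM in KI and 2440 to 4203 CPM in WT, and their part in these values was not tested.

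**Figure D2:**
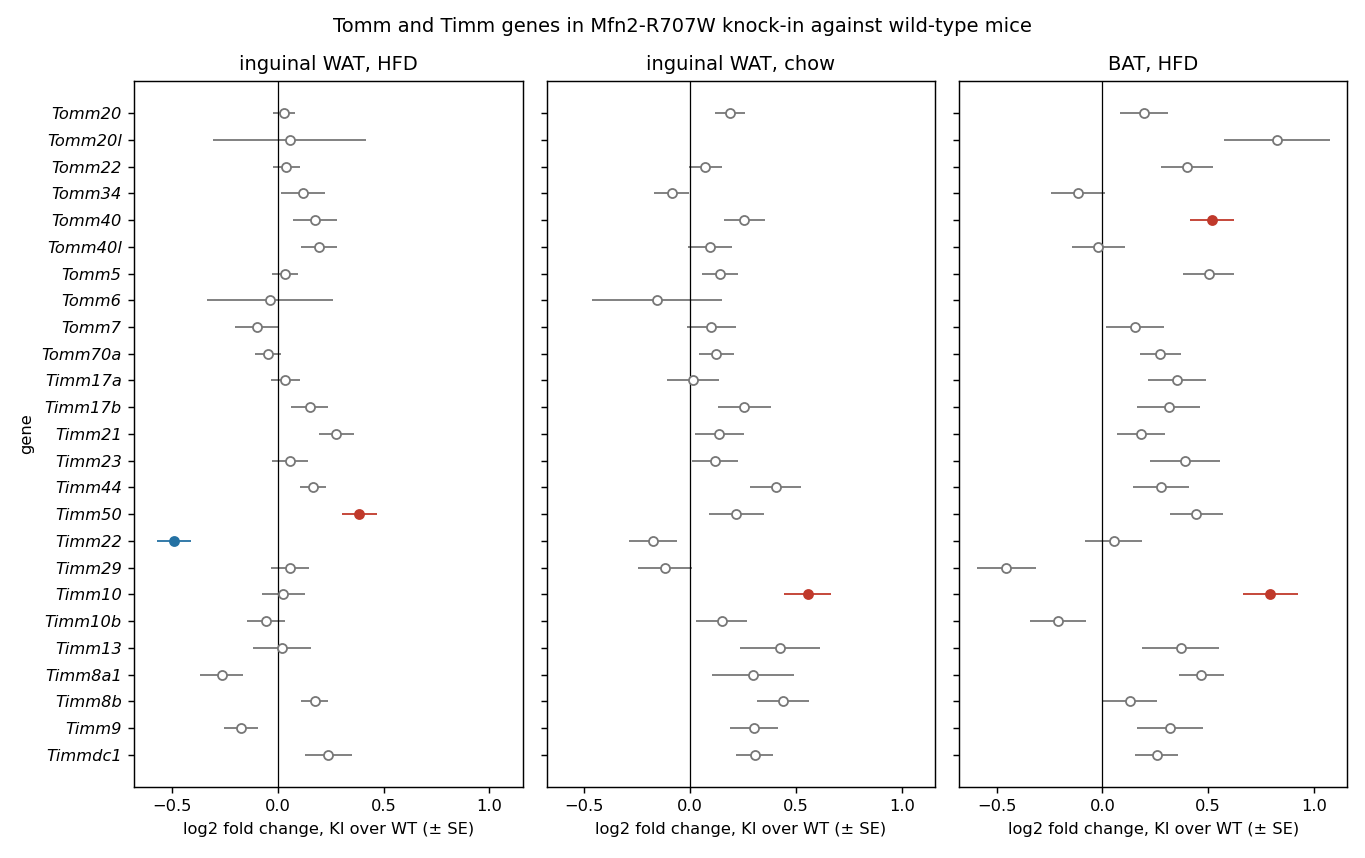
Log2 fold change of KI over WT for each member, by role, in the 3 tissue and diet settings. Bars are standard errors, filled points are called at an adjusted p below 0.01 (red higher, blue lower), and open points are not called. Filled points are Timm22 and Timm50 in inguinal WAT on HFD, Timm10 in inguinal WAT on chow, and Timm10 and Tomm40 in BAT.

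On chow, 1 of the 24 members tested in inguinal WAT rose (Timm10) and none fell. Timm10 forms the chaperone complex with Timm9 that carries hydrophobic proteins across the intermembrane space. Over all 14629 genes tested, 3.23% were called, 1.96% as higher and 1.27% as lower, so 1 of 24 (4.17%) is again close to the background. Tomm20l and Timm8a2 had too few counts for the test.

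Timm10 (ENSMUSG00000027076, chromosome 2, 84826997 to 84830213, plus strand) was at 16.0, 19.6 and 21.3 CPM in the 7 WT mice and at 23.7, 26.4 and 34.7 CPM in the 6 KI mice (lowest, median and highest). All 6 KI mice lay above all WT mice. The log2 fold change was 0.55 (SE 0.112, edgeR adjusted p = 0.00738, exact permutation p = 0.000583, the smallest these group sizes allow). With Timmdc1 it was 1 of 2 members that were higher with no overlap, and none was lower so, where 2.71% of all genes were higher and 1.61% lower with no overlap. When each of the 13 mice was left out in turn the value was 0.50 to 0.61, and the call held without KI replicate 2, KI replicate 5 or WT replicate 4 but in none of the 10 other cases. It did not hold either without the 2 WT and 3 KI mice high in muscle or lymphocyte markers (0.34, edgeR adjusted p = 0.103).

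Timmdc1, which despite its name is a factor for assembling respiratory complex I, also had groups that did not overlap on chow. Its values were 20.3, 25.5 and 26.1 CPM in WT and 27.3, 29.9 and 37.5 CPM in KI, and its log2 fold change of 0.30 (SE 0.0882, edgeR adjusted p = 0.0453) was not called. The small Tims had the highest median of the roles on chow, 0.36 with 6 of 6 above 0, the values being 0.55 for Timm10, 0.44 for Timm8b, 0.43 for Timm13, 0.30 for Timm8a1 and Timm9 and 0.15 for Timm10b. Timm22 had the lowest value, −0.18 (SE 0.114, edgeR adjusted p = 0.366), with WT at 24.4 to 36.4 and KI at 19.2 to 30.5 CPM.

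Over the 24 members on chow the median was 0.15 with 20 above 0, against a median of −0.0085 and 48.8% above 0 over all genes. Nuclear-encoded respiratory chain subunits, 80 tested, had a median of 0.36 and mitochondrial ribosomal proteins, 77 tested, a median of 0.17 in the same comparison. The channels Timm23 (0.12), Timm17a (0.01) and Timm17b (0.26) and the receptor Tomm20 (0.19) were not called. Beside these values, brown adipocyte markers summed to 84.8 to 510 CPM in KI and 17.1 to 62.9 CPM in WT on chow. Most of that sum was Cidea, at 69.7 to 501 CPM in KI and 6.27 to 50.9 CPM in WT, while Ucp1 was at no more than 0.966 CPM. Fibroblast and stroma markers summed to 1908 to 2984 CPM in KI and 2537 to 5942 CPM in WT on chow. The part of these markers' cells in the members' values was not tested.

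In BAT on HFD, 2 of the 24 members tested rose and none fell. They were Timm10 and Tomm40, the pore of the outer membrane. Over all 13267 genes tested, 1.83% were called, 1.36% as higher and 0.475% as lower, against 8.33% of the members. Tomm6 and Timm8a2 had too few counts for the test.

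Timm10 was at 38.2, 43.9 and 54.3 CPM in the 6 WT mice and at 61.0, 73.5 and 101 CPM in the 6 KI mice. The groups did not overlap, and the log2 fold change was 0.79 (SE 0.130, edgeR adjusted p = 0.00184, exact permutation p = 0.00216, the smallest that 6 against 6 mice allow). The call held when each mouse was left out in turn and without the 2 WT mice whose muscle markers summed to more than 1000 CPM. Of the 24 members, 3 were higher and none lower with no overlap, where 2.26% of all genes were higher and 1.3% lower so.

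Tomm40 (ENSMUSG00000002984, chromosome 7, 19701313 to 19715438, minus strand) was at 102, 122 and 146 CPM in WT and at 151, 184 and 188 CPM in KI. Again all 6 KI mice lay above all WT mice. The log2 fold change was 0.52 (SE 0.105, edgeR adjusted p = 0.00804), and it was 0.47 to 0.59 when each of the 12 mice was left out in turn. The call held without KI replicate 4, KI replicate 5 or WT replicate 3 but in none of the 9 other cases, and not without the 2 WT mice high in muscle markers (0.49, edgeR adjusted p = 0.0291). The gene shares 423 bases with the antisense Gm20512, which had 8252 counts against 48095.

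Timm8a1, a small Tim that works with Timm13, was the third member with no overlap in BAT, at 15.6, 17.3 and 18 CPM in WT and 18.5, 23.8 and 26.1 CPM in KI. Its log2 fold change of 0.47 (SE 0.105, edgeR adjusted p = 0.0148) missed the threshold. Tomm20l and Timm29 stood at the ends of the range without being called. Tomm20l was highest at 0.82 (SE 0.250, edgeR adjusted p = 0.0558), with 1.37, 1.60 and 2.49 CPM in WT and 2.02, 3.01 and 4.57 CPM in KI. Timm29, a metazoan subunit of the TIM22 complex, was lowest at −0.45 (SE 0.141, edgeR adjusted p = 0.0607), with 23.3, 25.7 and 32.4 CPM in WT and 15.2, 18.9 and 25.8 CPM in KI. Timm29 shares 107 bases with Yipf2 on the other strand.

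Over all 24 members in BAT, the called Timm10 and Tomm40 included, the median was 0.30 with 20 above 0 and 4 below, against a median of −0.01 and 48.3% above 0 over all genes. By role the medians were 0.27 for the TOM complex and receptors, 0.33 for TIM23, −0.20 for TIM22, 0.34 for the small Tims and 0.26 for Timmdc1. Timm50 was at 0.44 (edgeR adjusted p = 0.0413), Timm23 at 0.39, Timm17a at 0.35, Timm17b at 0.31, Tomm20 at 0.19 and Timm22 at 0.05, none of them called. The lowest, median and highest mice for Timm17a were at 109.5, 146 and 159 CPM in WT BAT and at 134, 177 and 216 CPM in KI BAT, and Timm17b, its paralogue, at 20.6, 24.9 and 31.1 CPM and at 23.8, 30.2 and 43.6 CPM. Timm23 was at 113, 142 and 167 CPM in WT BAT and at 133, 173 and 290.3 CPM in KI BAT, and the genotypes overlapped for each of these 3 channel genes.

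As a share of all counts, the 26 members together held 0.179 to 0.214% in WT BAT and 0.223 to 0.271% in KI BAT. Mitochondrially encoded genes held 14.6 to 18.4% in WT BAT and 10.6 to 12.8% in KI BAT, which by itself moves shares of the rest. On chow in inguinal WAT they held 2.39 to 5.12% in WT and 1.73 to 3.84% in KI mice. Leaving these 37 genes out before each fit changed no count of called members by more than 1.5 times. Fibroblast and stroma markers summed to 249 to 463 CPM in KI BAT and 422 to 961 CPM in WT BAT, and their part in the members' values was not tested.

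**Figure D3:**
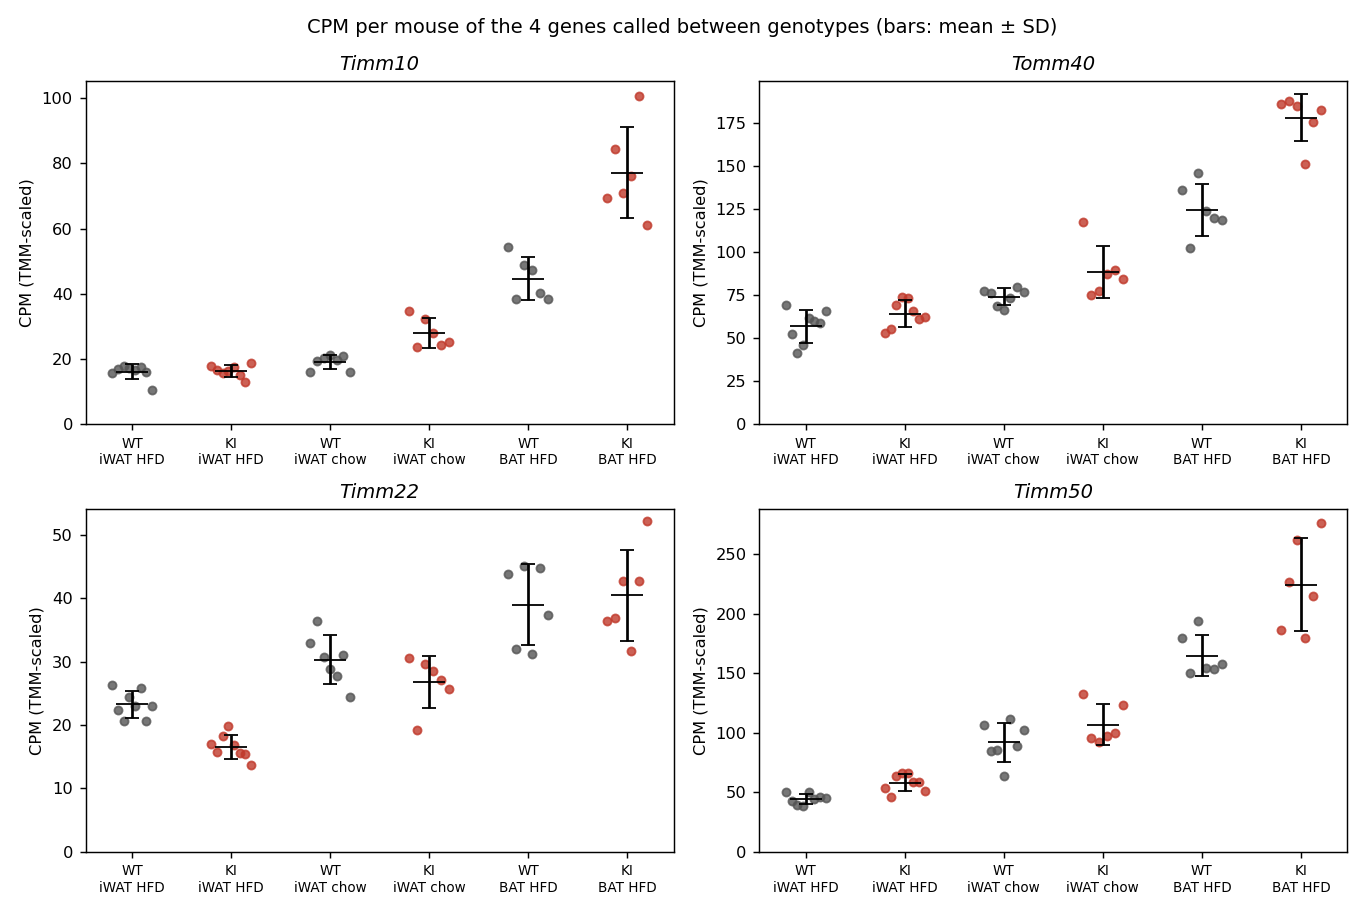
CPM of the members called in any of the 3 comparisons of KI with WT, 1 point per mouse, with mean and SD. The KI and WT points are apart for Timm22 in inguinal WAT on HFD, for Timm10 in inguinal WAT on chow and in BAT, and for Tomm40 in BAT, and 7 of 8 KI points of Timm50 in inguinal WAT on HFD lie above all WT points.

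Whether the KI effect depended on diet or tissue was tested as an interaction. Between HFD and chow in inguinal WAT, 0 of 25 members were called by edgeR, 4 had an unadjusted p under 0.05 (the largest of the 4, 0.038 for Timm22, ranked 2511 of all 17400 genes), DESeq2 also called 0, and 0.632% of all genes were called, 0.207% as higher and 0.425% as lower. The values furthest from 0 were −0.55 for Timm8a1 (SE 0.197, edgeR adjusted p = 0.133), −0.52 for Timm10 (SE 0.152, edgeR adjusted p = 0.0576) and −0.47 for Timm9 (SE 0.134, edgeR adjusted p = 0.0518). Timm22, called on HFD and not on chow, had a difference of −0.30 (SE 0.138, edgeR adjusted p = 0.263), and Timm50 one of 0.18 (SE 0.156), so neither is shown to differ between diets.

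Between BAT and inguinal WAT on HFD, 2 of 25 members were called, both higher in BAT and both small Tims, where 2.82% of all genes were called, 1.58% as higher and 1.24% as lower. Timm10 had a KI effect of 0.03 in inguinal WAT, where WT mice were at 10.6 to 17.9 and KI mice at 12.8 to 18.8 CPM, and the difference of the effects was 0.81 (SE 0.164, edgeR adjusted p = 0.00221). Timm8a1 had an effect of −0.27 in inguinal WAT, with WT at 4.55 to 6.47 and KI at 3.94 to 5.04 CPM, and a difference of 0.78 (SE 0.134, edgeR adjusted p = 0.000381). Timm22 had a difference of 0.58 (SE 0.157, edgeR adjusted p = 0.0208) that was not called. Without the mice high in muscle or lymphocyte markers, the differences of Timm10 and Timm8a1 were 0.77 and 0.72 and neither was called (edgeR adjusted p = 0.0402 and 0.0154). Whether the BAT and inguinal samples came from the same mice is not given in the sources used here, and the test takes them as separate.

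Differences between the depots were larger and more often called than those between the genotypes. In BAT against inguinal WAT of WT mice on HFD, 23 of 25 members were higher, 1 was lower and Tomm6 was not called, where 55.9% of all genes were called, 26.9% as higher. In KI mice the counts over members were the same, where 59.1% of all genes were called, 28.4% as higher. In each genotype 23 members were higher and 1 lower with no overlap between the depots, where 19.9 and 19.6% of all genes were higher and lower so in WT and 19.8 and 20.9% in KI mice. The median difference was 1.56 in WT and 1.91 in KI mice on the log2 scale, against −0.09 and −0.12 over all genes. Without TMM factors the median over all genes moved by −0.51 and −0.62, the share of calls that were higher fell to 21.4 and 19.9%, and the members' median was 1.03 and 1.27, with 23 of 25 still above 0. The depots were in separate tables, so depot and any difference between sequencing runs cannot be told apart.

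Timm13 had the largest difference, 3.15 in WT (SE 0.176) and 3.55 in KI mice (SE 0.178). Tomm5 was next in WT mice at 2.51 (SE 0.0921) and was at 3.01 (SE 0.0932) in KI mice, all called by edgeR's test. Timm13 RPKM in WT mice was 18.7 to 39.8 in inguinal WAT and 185 to 296 in BAT. Tomm20l differed by 2.44 in WT and by 3.27 in KI mice, where it came second, and Timm50 by 2.44 and 2.54. The small Tims had the highest median, 2.12 in WT and 2.80 in KI mice, and TIM23 had 1.54 and 1.90. Tomm34, a cytosolic cochaperone that carries the name but is not part of the channel, was the member called lower in BAT, at −0.85 in WT (SE 0.117) and −1.05 in KI mice (SE 0.118). Its WT values were 8.52 to 11 RPKM in BAT and 12.8 to 21.9 RPKM in inguinal WAT, which did not overlap. Tomm34 shares 848 bases with Stk4 on the other strand.

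In inguinal WAT of WT mice, 15 of 25 members were lower on HFD than on chow and none was higher, where 28.2% of all genes were called, 15.2% as lower. In KI mice 18 of 25 were lower and none was higher, where 30.6% were called, 15.4% as lower. With no overlap between the diets, 8 members were lower in WT and 15 in KI mice and none was higher, where 7.06 and 9.22% of all genes were lower and 5.03 and 7.48% higher so. The medians were −0.41 and −0.55, against 0.04 over all genes in both. Timm13 again led, with −1.70 in WT (SE 0.169) and −2.10 in KI mice (SE 0.175). Tomm7 followed at −1.10 and −1.29, Timm50 at −1.10 and −0.92, and Timmdc1 at −0.91 and −0.96. In WT mice Tomm7 was at 48.4 to 73.5 RPKM on chow and 22 to 34.9 RPKM on HFD, with no overlap.

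Tomm70a, Tomm34 and Timm10b were not called between diets in either genotype. Tomm70a was at −0.05 in WT and −0.20 in KI mice (edgeR adjusted p = 0.642 and 0.0347), Tomm34 at −0.05 and 0.16, and Timm10b at −0.09 and −0.28 (edgeR adjusted p = 0.479 and 0.0207). The TIM23 genes were called in 5 of 6 cases in each genotype, and the TOM genes and receptors in 6 of 10. Of the 6 small Tims tested, 1 was called in WT mice (Timm13) and 5 in KI mice (all but Timm10b), and no interaction of the members with diet passed the test. Timm10b shares 3086 bases with Gm45799 on the same strand and 361 bases with Arfip2 on the other, and the effect of this on its counts was not tested. The chow and HFD samples came in separate tables with different depth, so diet and a difference between runs cannot be told apart.

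**Figure D4:**
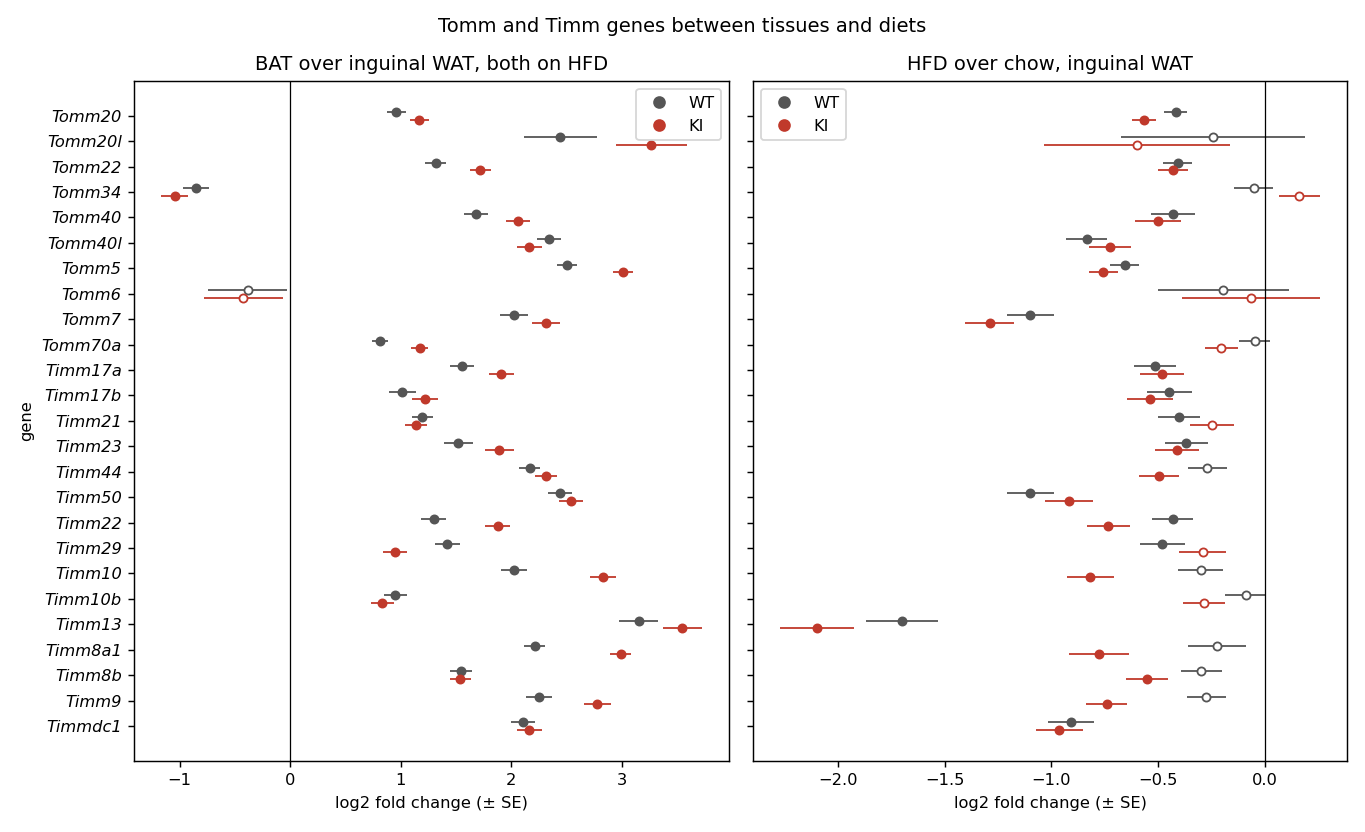
Log2 fold changes of the members between BAT and inguinal WAT on HFD, and between HFD and chow in inguinal WAT, with standard errors, for WT mice (grey) and KI mice (red). All members but Tomm34 and Tomm6 lie above 0 for BAT, and all WT points lie below 0 for HFD.

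The wider import pathway was read from 29 other genes. In inguinal WAT on HFD, 5 rose and 2 fell, in inguinal WAT on chow 4 rose, and in BAT 3 rose, with medians of 0.07, 0.28 and 0.33. Over all genes, 6.21% were called higher and 5.24% lower on HFD, 1.96 and 1.27% on chow, and 1.36 and 0.475% in BAT. The medians over all genes were 0.0055, −0.0085 and −0.01. Of the 29, the gene with the largest change in each setting was Hspa9, the matrix Hsp70 that pulls proteins through the TIM23 channel. Its values were 239 to 327 CPM in WT and 495 to 727 CPM in KI inguinal WAT on HFD, 333 to 422 and 787 to 1315 CPM on chow, and 960 to 1345 and 1970 to 2465 CPM in BAT. The genotypes did not overlap in any of the 3, and the log2 fold changes were 1.05 (SE 0.0885), 1.37 (SE 0.126) and 0.92 (SE 0.121), with edgeR adjusted p of 1.39e-07, 1.99e-05 and 0.000364. None of the members called in these 3 comparisons had a fold change as large.

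By role, the matrix chaperonin Hspd1 rose in inguinal WAT by 0.55 on HFD and 0.64 on chow, and its partner Hspe1 rose on chow by 0.69. Immp2l, a subunit of the inner membrane peptidase, rose by 0.86 on HFD and 1.27 on chow, and Mipep, the intermediate peptidase, by 0.28 on HFD. Samm50, the core of the machinery that inserts barrel proteins such as Tomm40 into the outer membrane, rose by 0.54 in inguinal WAT on HFD, from 65.4 to 89.2 CPM in WT to 96.8 to 123 CPM in KI mice without overlap. In BAT, Chchd4, the oxidoreductase that folds the small Tims in the intermembrane space, rose by 0.56, and Mtx1, a partner of Samm50, by 0.47 (SE 0.112 and 0.0923, edgeR adjusted p = 0.00706 and 0.00647). When each of the 12 BAT mice was left out in turn, the call of Chchd4 held without KI replicate 1, 4 or 5 and that of Mtx1 without these or WT replicate 3, and in no other case. Without the mice high in muscle or lymphocyte markers, which left 3 to 6 mice a group, Hspa9 was the call left in BAT, Hspa9, Hspd1 and Immp2l were left on chow, and Hspa9, Immp2l and Samm50 were left in inguinal WAT on HFD, so that the HFD calls of Hspd1, Mipep, Dnajc19 and Xpnpep3 were lost. With single mice left out on HFD, the call of Mipep held without KI replicate 2, 4 or 8 or WT replicate 4 or 7, and that of Xpnpep3 without KI replicate 1 or 6 or WT replicate 1, 6 or 7, and in no other case.

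Dnajc19, a J-protein linked to the TIM23 motor, fell by 0.45 on the log2 scale in inguinal WAT on HFD, from 59.4 to 88.6 CPM in WT to 50.5 to 58.6 CPM in KI mice. On chow it was at 0.26 (SE 0.101, edgeR adjusted p = 0.120), and the difference between the diets was called (−0.70, SE 0.128, edgeR adjusted p = 0.00263). Xpnpep3, a peptidase that trims imported proteins, fell by 0.34 in inguinal WAT on HFD. Yme1l1, the protease that degrades the Timm17a protein, was at −0.11, 0.16 and −0.12 in the 3 settings and was not called, and Timm17a mRNA was not called either. As a reference for the KI response, 5 genes of the integrated stress response (Atf4, Atf5, Ddit3, Trib3 and Mthfd2) were called as higher in 5 of 5 cases in inguinal WAT on HFD and in 4 of 5 cases each on chow and in BAT, the medians being 2.42, 2.08 and 2.15. Over all genes, 6.21, 1.96 and 1.36% were called as higher in the same settings. The list of 5 was known from these mice to respond, and its direction is no independent evidence.

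**Figure D5:**
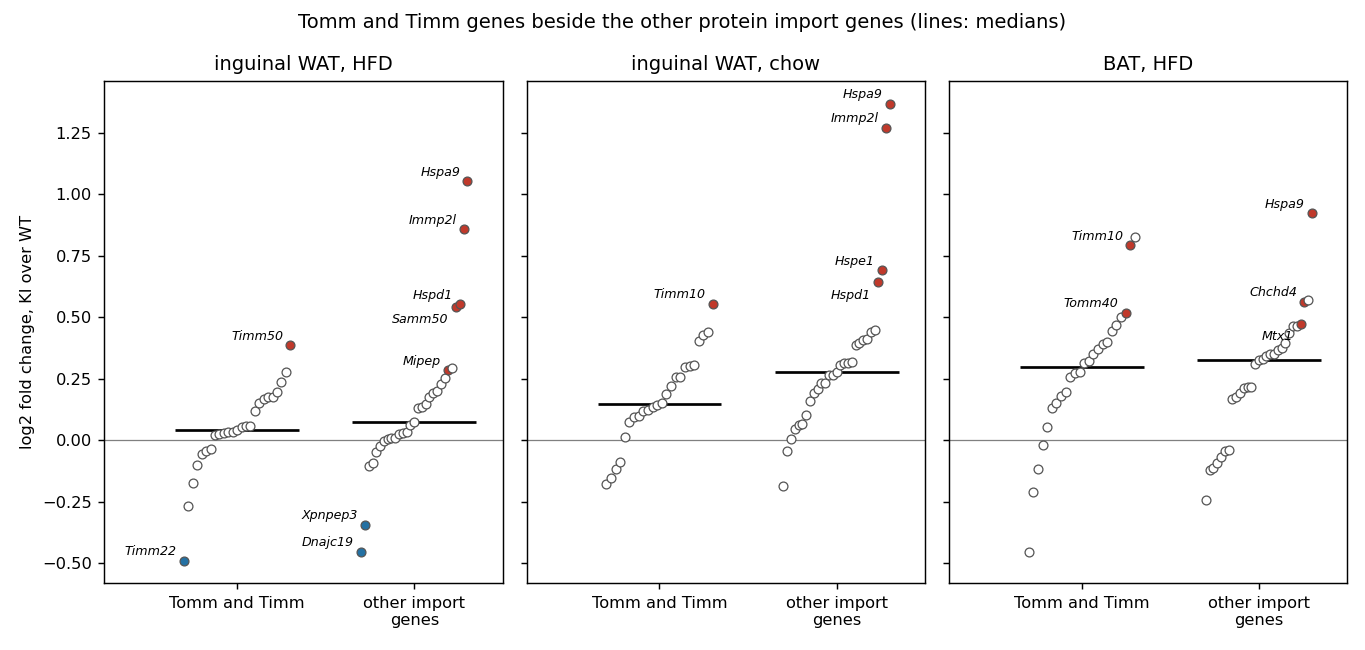
Log2 fold change of KI over WT in the 3 settings, for the Tomm and Timm members (left in each panel) and the 29 other import genes (right). Each point is a gene, filled where called (red higher, blue lower), and lines are medians. Hspa9 stands furthest above 0 in each setting. The blue points in inguinal WAT on HFD are Timm22 among the members, and Dnajc19 and Xpnpep3 among the other genes.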

How the data were processed

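The authors sequenced poly-A RNA in paired ends, and their processing notes name cutadapt, STAR, SAMtools, featureCounts and the build GRCm38. Versions, annotation and strand setting are not given in the sources used here. The deposited values are raw counts per gene in 3 tables of 54838 entries, for BAT, inguinal WAT on chow and inguinal WAT on HFD. The 1884 entries without a count were left out, and of the 99 symbols listed more than once, always with identical counts, the first was kept. The 57 libraries in the labels came as 41 columns.

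KI and WT mice were compared within each table with edgeR 4.0.16 in R 4.3.3 (TMM scaling, filterByExpr, robust quasi-likelihood, genotype as the term, Benjamini-Hochberg adjustment over all genes tested, threshold 0.01). The study's methods used DESeq2, which was an alternative here (version 1.42.0). Interactions and contrasts between depots or diets were fitted on the 4 groups they concern. CPM use the TMM-scaled library sizes of 1 comparison, and RPKM divide by the deposited gene length with scaling over all columns. Each standard error was obtained by dividing the size of the log2 fold change by the root of F. Depth was 8042591 to 25680411 counts a column. Alternatives were other scalings, low-count filters and thresholds, mitochondrially encoded genes left out, one fit of all 6 groups, a replicate block, and mice left out.

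On simulated counts the test called 24% of genes changed by 0.5 on the log2 scale in inguinal WAT on HFD, 3.03% in that on chow and 7.07% in BAT, and 73.5, 64 and 64.2% of those changed by 1. Each simulation changed only 95 to 100 genes of each size, drawn at random from any level, among 13150 to 16306. These rates are therefore not the power of the test for the members in the real counts. Single-mouse values are given for called members, the highest and lowest member of each comparison, Tomm20, Tomm40, Timm23, Timm17a and Timm17b. Timm8a1, Timmdc1 and the members named beside these were chosen after their values were seen. The members and lists were chosen with earlier results of these data known. Promoter sequences are from RefSeq (GRCm38.p6).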

Additional observations from a re-analysis of the deposited data

Results flagged for a closer look

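Outlying mice were looked for among the single-mouse values of the 10 members named by rule, and 6 of 60 groups held one by Dixon's criterion, where chance gives about 1 in 20. Timm10 was at 10.6 CPM in WT replicate 8 of inguinal WAT on HFD, with the nearest mouse at 15.5 CPM. Tomm40 was at 151 CPM in KI replicate 4 of BAT, below the nearest at 176 CPM, and at 117 CPM in KI replicate 1 of inguinal WAT on chow, above the nearest at 89.4 CPM. Timm23 was at 290 CPM in KI replicate 5 of BAT against 185 CPM, and at 62.9 CPM in KI replicate 2 of inguinal WAT on HFD against 73.6 CPM. Timm17b was at 13.7 CPM in WT replicate 3 of inguinal WAT on HFD against 17.7 CPM. Lymphocyte markers summed to 599.8 CPM in that KI replicate 2 on HFD and to 109 CPM in that KI replicate 1 on chow, and their part in these values was not tested.

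The KI effect differed between BAT and inguinal WAT on HFD for Timm10, by 0.81 (edgeR adjusted p = 0.00221), and for Timm8a1, by 0.78 (edgeR adjusted p = 0.000381).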

How the results depend on the processing

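Of 114 recomputed values of the called members in the comparisons of KI with WT, 88 kept their call, 26 kept their direction but lost it, and none reversed. The members called in inguinal WAT on HFD (2 as reported) were 5 without TMM factors, 1 in one fit of all 6 groups and 0 without the mice high in skeletal muscle or lymphocyte markers, a choice made after seeing the data. On chow (1 as reported) they were 0 without TMM factors, 3 in one fit of all groups, 0 without those mice, 3 at an adjusted p below 0.05, and 0 to 1 when each mouse was left out. In BAT (2 as reported) they were 7 in one fit of all groups, 4 with DESeq2, 1 without those mice, 5 at an adjusted p below 0.05 and 1 to 3 when each mouse was left out. For the difference of the KI effect between depots (2 as reported) they were 4 with DESeq2, 0 without those mice and 5 at an adjusted p below 0.05. The other import genes called were 3 without those mice on HFD (7 as reported). On chow (4 as reported) they were 7 in one fit of all groups, 9 with DESeq2 and 11 at an adjusted p below 0.05. In BAT (3 as reported) they were 7 in one fit of all groups, 1 without those mice, 5 at an adjusted p below 0.05, and 1 to 3 when each mouse was left out. The share of all genes called moved too. On HFD it was 15% without TMM factors, 7.67% in one fit and 6.2% without those mice, against 11.5% as reported. On chow it was 3.01, 6.72 and 2.51%, and 6.95% with DESeq2, against 3.23%. In BAT it was 5.15% in one fit, 4.62% with DESeq2 and 1.42% without those mice, against 1.83%. For the difference between depots it was 5.04% with DESeq2 and 1.21% without those mice, against 2.82%. Member counts for depots, for diets and for the difference between diets stayed within 1.5 times. One fit of all groups shares one spread, and leaving mice out lowers the number of samples; otherwise the cause was not tested.

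The replicate block left 0 members (Timm10 0.51, edgeR adjusted p = 0.0736) and 2 other import genes called on chow, and moved no other count by over 1.5 times. Same-numbered mice deviated with correlations from −0.28 to 0.65, so the numbers were not taken as a pairing, and not every mouse correlated best with its own number.

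Values reversed only among members not called. Leaving out mice on HFD gave −0.0423 to 0.0717 for Timm10, −0.19 to 0.22 for Tomm20l, −0.0014 to 0.0415 for Tomm20 and −0.0048 to 0.0569 for Timm17a. It gave −0.0466 to 0.10 for Timm17a on chow and −0.0173 to 0.12 for Timm22 in BAT. Without the mice high in markers Tomm20l was −0.32 on HFD, and on chow Timm23 was −0.0022 and Timm17a −0.0063, the last being −0.0142 without TMM factors. The difference between diets, without TMM factors and without those mice, was 0.0566 and 0.0664 for Tomm40, 0.0693 and 0.0694 for Timm23, and 0.0376 and 0.0949 for Timm17b. The difference between depots was −0.0227 for Timm50 without TMM factors, which moved the median over all genes by 0.13 for the diet difference and −0.11 for the depot difference, where 38.3% of calls were then higher. At this depth Timm8a2, Tomm6 and Tomm20l could not be compared in every setting.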
